A study of Mus musculus with 6 samples.

Results

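Glycolysis breaks glucose down to pyruvate in the cytosol, and the pentose phosphate pathway branches off it at glucose 6-phosphate. The genes described here are 37 named genes of these routes: the glucose and lactate carriers, the enzymes of glycolysis with their isoenzymes, the enzymes that set fructose 2,6-bisphosphate, phosphoglucomutase, the pentose phosphate enzymes and Hif1a. They were taken by exact gene name from a table of 27763 gene rows and fill 38 rows, because Aldoa has 2. Of the 37 genes, 32 had at least 1 FPKM (fragments per kilobase of transcript, scaled to the depth of the library) in at least 3 of the 6 libraries and were tested. Slc16a3, Pfkfb4, Aldoc, Eno2, Ldhb and the second Aldoa row fell short of that level.

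The cells were natural killer (NK) cells, the innate lymphocytes that kill infected and transformed cells, taken from spleens of C57BL/6 mice that were wild type and 6 weeks old. DN NK and cNK cells were compared, with 3 poly(A) RNA-seq libraries each. The labels name no treatment or engineered allele in either group, spell out neither short name, and do not give the surface markers behind them. Whether each library stands for a mouse of its own is not given either, so p-values here cover the scatter among these libraries, which may be technical.

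Hexokinases trap glucose inside the cell as glucose 6-phosphate, and phosphofructokinase commits it to glycolysis. Pyruvate is then either turned into lactate by lactate dehydrogenase or carried into mitochondria for the citrate cycle. The pentose phosphate pathway uses the same glucose 6-phosphate to make NADPH and ribose 5-phosphate. Resting NK cells are known to run glycolysis at a low rate and to raise it when cytokines activate them, and the transcription factor Hif1a induces many genes of the route under low oxygen.

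Estimated counts per library summed to between 79798234 and 81437724 in DN NK and between 84270567 and 89526647 in cNK. No library duplicated another. Defining NK genes were abundant in both groups, with 9 listed NK markers summing to 2260 to 2540 FPKM in DN NK and 3570 to 3730 FPKM in cNK, and 8 of the 9 lower in every DN NK library. The 10 B cell markers summed to 160 to 220 FPKM in DN NK and 95.8 to 98.9 FPKM in cNK, all of them higher without overlap. The 12 T cell markers summed to 649 to 686 FPKM in DN NK and 503 to 519 FPKM in cNK, with 10 higher and 1 lower without overlap. Summed markers of ILC2 and ILC3 reached 23.7 to 26.7 FPKM in DN NK and 14.7 to 16.8 FPKM in cNK, with 7 of 9 higher without overlap, Il22 at 0 in cNK and Il13 at 0 in DN NK. Plasma cell markers summed to 44.0 to 50.4 FPKM in DN NK and 33.9 to 37.6 FPKM in cNK. Monocyte and macrophage markers stayed at 6.36 to 7.21 FPKM in DN NK and 6.71 to 8.01 FPKM in cNK. The part of these other cell types in the results below was not tested, and in bulk RNA fewer cells of a type and less RNA per cell cannot be told apart.

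The routes as a whole did not move in one direction. Of the 32 tested genes, 11 were higher in DN NK, 10 were lower and 11 did not pass an adjusted p of 0.05 by edgeR's quasi-likelihood test. That is 65.6% called, against 61.7% of all 11690 tested rows. The split by direction was also near the background, where 30.8% of rows were higher and 30.9% lower. The median log2 fold change of the 32 genes was 0.00, against -0.02 over all tested rows, and their median absolute log2 fold change was 0.27, against 0.37. For 23 of the 32 genes every DN NK library lay on the same side of every cNK library, as was the case for 70.3% of all tested rows. Summed over all 38 rows, the genes held 624 ± 7.24 FPKM in DN NK and 623 ± 11.4 FPKM in cNK (SD, n = 3 each). That sum leaves out near-identical copies of Gapdh, Eno1, Pgk1 and Pgam1 that have rows of their own. The Gapdh copies alone held 577 FPKM in DN NK and 481 FPKM in cNK, so the equal totals depend on how reads were shared out.

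The counts were uneven along the route, though no test compared one place with another. All 3 tested transport genes and 4 of 7 genes from hexokinase to phosphofructokinase were higher in DN NK, with 1 of the 7 lower. Of 9 tested genes of lower glycolysis, 2 were higher and 4 lower, and of 7 pentose phosphate genes 4 were lower and 0 higher. The share called was 71.4% from hexokinase to phosphofructokinase, 66.7% in lower glycolysis and 57.1% in the pentose phosphate pathway. All tested rows had 61.7% called, with 30.8% higher and 30.9% lower. The lists are small, and among these calls those of Hk1, Pfkp, Pgam1 and Tkt were lost in some alternative settings. The median log2 fold change was 1.0 for transport, 0.26 for hexokinase to phosphofructokinase, -0.19 for lower glycolysis and -0.40 for the pentose phosphate pathway. At least 2-fold changes past the test were reached by 3 members, Hk2, Slc2a1 and Hk3, all higher in DN NK, with Slc16a1 just under that size. Of all tested rows, 12.6% passed that size in either direction. Over the alternative settings the log2 fold change was 3.03 to 4.14 for Hk2, 0.98 to 1.19 for Slc2a1 and 0.71 to 1.13 for Hk3. Only Hk2 thus stayed past 2-fold in all of them.

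**Figure D1:**
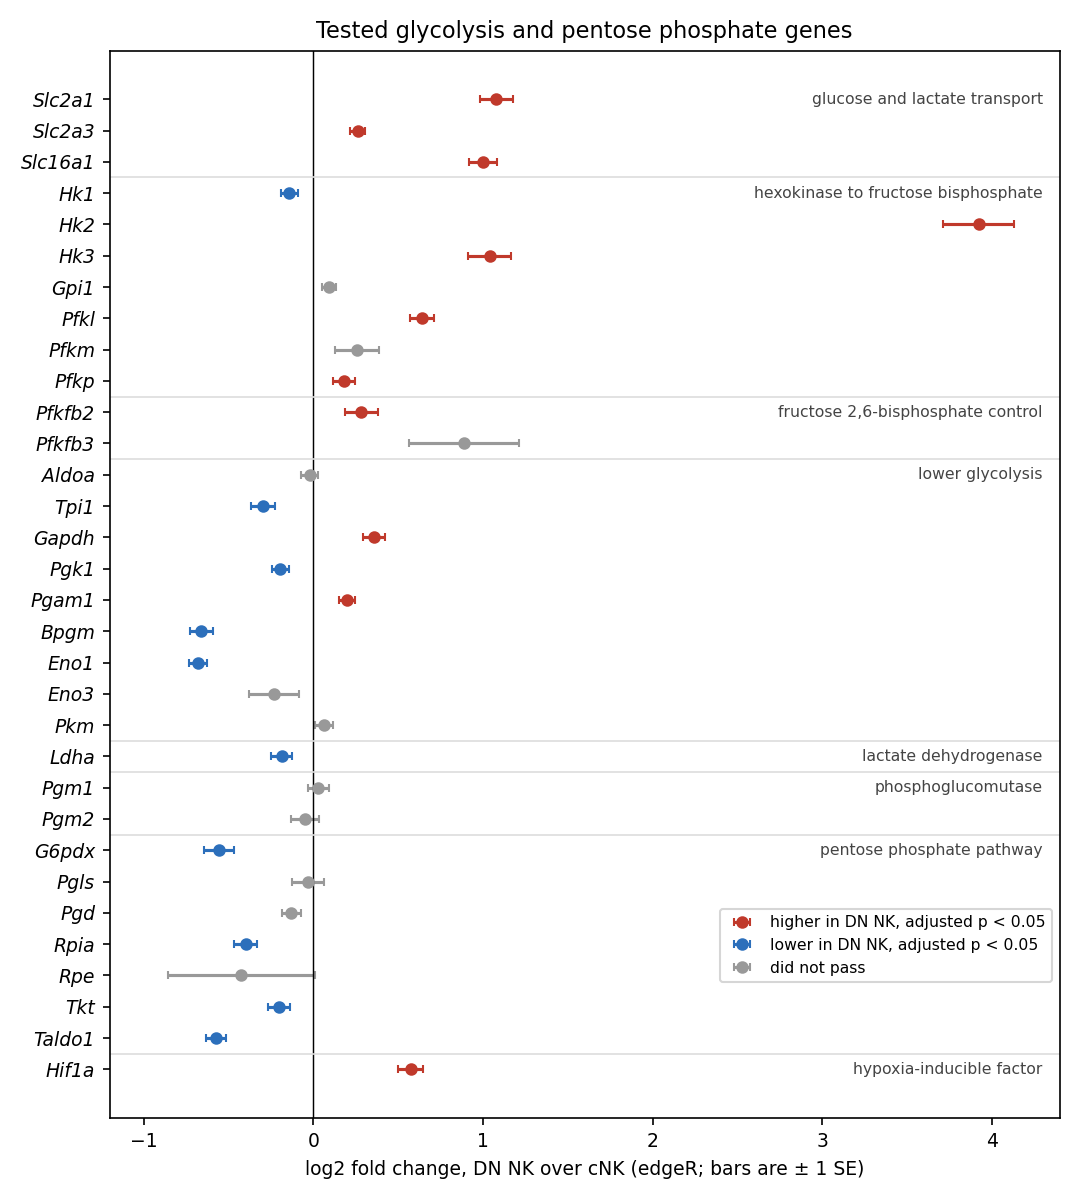
Log2 fold change of DN NK over cNK for the 32 tested genes, ordered by their place in the route, with points in red (higher past the test), blue (lower past the test) or grey (did not pass) and bars of 1 SE. Hk2 stands far to the right at 3.92, the transport genes all lie right of 0, and every pentose phosphate gene lies left of 0, of which 4 passed the test.

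Promoters of the 3 largest increases (Hk2, Slc2a1, Hk3) and of the 3 largest decreases (Eno1, Bpgm, Taldo1) are shown because several genes of the route are textbook targets of hypoxia-inducible factors. The core of their DNA element reads ACGTG or GCGTG. Each line gives the 250 bases before the RefSeq start of the gene on GRCm38.p6, 5′ to 3′ on the gene's own strand, with capitals marking ACGTG or GCGTG, or their reverse complements CACGT and CACGC. The windows lie at chr6:82774455-82774704, minus strand for Hk2, chr4:119108495-119108744, plus strand for Slc2a1 and chr13:55021386-55021635, minus strand for Hk3. Those of the lower genes lie at chr4:150236458-150236707, plus strand for Eno1, chr6:34476106-34476355, plus strand for Bpgm and chr7:141391910-141392159, plus strand for Taldo1.
Hk2: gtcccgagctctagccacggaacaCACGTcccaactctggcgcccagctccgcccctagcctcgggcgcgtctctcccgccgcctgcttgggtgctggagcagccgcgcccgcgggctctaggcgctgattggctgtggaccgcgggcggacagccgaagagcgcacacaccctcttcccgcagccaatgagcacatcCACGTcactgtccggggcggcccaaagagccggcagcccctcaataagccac
Slc2a1: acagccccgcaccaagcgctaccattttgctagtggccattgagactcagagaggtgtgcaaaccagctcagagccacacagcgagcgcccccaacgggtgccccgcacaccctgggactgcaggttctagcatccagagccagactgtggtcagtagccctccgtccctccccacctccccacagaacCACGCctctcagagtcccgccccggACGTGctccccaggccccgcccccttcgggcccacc
Hk3: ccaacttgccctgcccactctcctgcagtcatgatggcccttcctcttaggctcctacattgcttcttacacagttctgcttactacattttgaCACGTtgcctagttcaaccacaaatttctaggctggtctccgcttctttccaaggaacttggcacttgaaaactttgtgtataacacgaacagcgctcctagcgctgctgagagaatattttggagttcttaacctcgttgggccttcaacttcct
Eno1: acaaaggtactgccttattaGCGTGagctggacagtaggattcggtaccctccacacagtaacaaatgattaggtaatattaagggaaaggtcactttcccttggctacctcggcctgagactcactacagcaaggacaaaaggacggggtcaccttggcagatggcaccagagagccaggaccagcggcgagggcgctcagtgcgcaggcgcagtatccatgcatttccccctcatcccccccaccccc
Bpgm: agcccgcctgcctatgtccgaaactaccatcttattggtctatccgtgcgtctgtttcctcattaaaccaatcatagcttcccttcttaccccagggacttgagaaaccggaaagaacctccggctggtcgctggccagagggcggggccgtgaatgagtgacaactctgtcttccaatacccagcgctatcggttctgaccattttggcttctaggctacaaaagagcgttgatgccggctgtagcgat
Taldo1: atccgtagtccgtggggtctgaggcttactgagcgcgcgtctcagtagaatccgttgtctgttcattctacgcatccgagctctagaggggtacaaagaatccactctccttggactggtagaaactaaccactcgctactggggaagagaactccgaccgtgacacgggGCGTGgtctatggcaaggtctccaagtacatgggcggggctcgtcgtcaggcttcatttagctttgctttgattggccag

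Hk2 and Slc2a1 each held 2 matches, Hk3, Eno1 and Taldo1 held 1 each, and Bpgm held 0. RefSeq gave a window for 36 of the 37 genes. Where a gene had several, the 1 nearest its deposited start was taken, which lay 13205 bases off for Pfkfb2, 8458 for Aldoa, 6492 for Hif1a and 4329 for Ldha. At least 1 match on either strand was present in 28 of the 36 (77.8%), against 38.6% of 32851 RefSeq promoter windows of the same length. ACGTG alone was in 36.1% of the members' windows and 16.6% of all windows, and GCGTG in 50.0% and 28.2%. The E-box CACGTG, which contains ACGTG on both strands, was in 4 of the 36 windows (11.1%), against 6.02% of all windows. By direction, a match was present in 10 of 10 windows of genes higher in DN NK, 7 of 10 of genes lower, 7 of 11 of genes that did not pass and 4 of 5 of genes below the expression filter. The members' windows were richer in G and C, with a median of 57.8% against 52.4%, and the shares were not matched for it. The set of all windows was also not limited to tested genes or to 1 window per gene. A match is only a stretch of letters in these windows and shows no binding.

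Of the 4 carriers of glucose and lactate, Slc2a1, Slc16a1 and Slc2a3 were higher in DN NK, and Slc16a3 did not pass the test. Slc2a1, which encodes the glucose transporter GLUT1 (chromosome 4, 119108711 to 119137983), had 44.4, 43.3 and 44.9 FPKM in DN NK, against 24.7, 19.0 and 21.7 FPKM in cNK. Every DN NK library was well above the highest cNK library, and the log2 fold change was 1.08 (SE 0.10, edgeR adjusted p = 5.15e-05). Slc16a1, the gene of the proton-linked monocarboxylate carrier MCT1 that moves lactate and pyruvate (chromosome 3, 104638668 to 104658462), had 9.37, 9.91 and 9.44 FPKM in DN NK, against 5.47, 4.54 and 4.97 FPKM in cNK. It too showed no overlap, at a log2 fold change of 1.0 (SE 0.08, edgeR adjusted p = 1.84e-05). Slc2a3, which encodes the high-affinity transporter GLUT3, rose less, with 15.2, 15.2 and 15.4 FPKM in DN NK and 13.2, 13.9 and 12.8 FPKM in cNK. The groups were apart by little more than 1 FPKM, a log2 fold change of 0.26 (SE 0.05, edgeR adjusted p = 0.00129).

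The lactate exporter gene Slc16a3 (MCT4) remained below the filter, at 0.325 ± 0.0389 FPKM in DN NK and 0.443 ± 0.0732 FPKM in cNK (SD, n = 3 each). In a fit of all 27763 rows, of which 31.3% were called, it did not pass (edgeR adjusted p = 0.120). Summed over the 4 carriers, the level was 69.4 ± 0.644 FPKM in DN NK and 40.5 ± 2.94 FPKM in cNK. Slc2a1 made up 74.3% ± 0.26 of the Slc2a1 and Slc2a3 sum in DN NK and 61.9% ± 3.80 in cNK, a difference of 12.4 percentage points. The exact permutation test of such a share over 3 against 3 libraries cannot go below p = 0.1, which is the value it gave here. Slc16a3 made up 3.28% ± 0.437 of the MCT1 and MCT4 sum in DN NK and 8.19% ± 1.46 in cNK (exact permutation p = 0.1). Rows that overlap Slc2a1 in position were also higher in DN NK, with Gm12867 at 4.66 FPKM in DN NK and 2.90 FPKM in cNK and Mir1957a at 6.96 FPKM in DN NK and 3.85 FPKM in cNK, and the library kit does not mark the strand.

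Hk2, which encodes the inducible hexokinase that can sit on the outer mitochondrial membrane (chromosome 6, 82725025 to 82774454, minus strand), showed the largest difference among the tested members. It had 16.5, 15.8 and 15.9 FPKM in DN NK, against 1.39, 0.832 and 1.08 FPKM in cNK. The lowest DN NK library was more than 10 FPKM above the highest cNK library. The log2 fold change was 3.92 (SE 0.21, edgeR adjusted p = 2.67e-05), or 15.2-fold. In rank, 74.4% of tested rows lay below Hk2 in DN NK and 6.12% in cNK. Only 7.9% of all tested rows were at least 2-fold higher in DN NK.

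The other hexokinase genes moved less. Hk3, an isoenzyme known from myeloid cells (chromosome 13, 55005985 to 55021385, minus strand), had 3.29, 3.50 and 4.29 FPKM in DN NK, against 1.70, 2.12 and 1.79 FPKM in cNK. Its groups did not overlap, at a log2 fold change of 1.04 (SE 0.13, edgeR adjusted p = 0.000157), while the summed monocyte and macrophage markers given above overlapped between the groups. The 4 neutrophil markers in the table (Ngp, Camp, S100a8 and S100a9) summed to 0.135 to 0.625 FPKM in DN NK and were all at 0 in cNK. Unc5a, which overlaps Hk3 on the opposite strand, held 2.13 FPKM in DN NK and 1.64 FPKM in cNK, and the part of either in the Hk3 result was not tested. Hk1, the housekeeping isoenzyme, had 11.9, 13.2 and 13.3 FPKM in DN NK, against 14.1, 15.3 and 14.8 FPKM in cNK. Every DN NK library was below every cNK library, and the log2 fold change was -0.14 (SE 0.05, edgeR adjusted p = 0.0421). That call was lost in 6 of 16 alternatives, among them without DN NK replicate 1, DN NK replicate 3, cNK replicate 2 or cNK replicate 3, with adjusted p from 0.00545 to 0.112 over all 16.

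Together the 3 hexokinase genes held 32.6 ± 0.889 FPKM in DN NK and 17.7 ± 0.500 FPKM in cNK. Hk2 took 49.3% ± 2.42 of that sum in DN NK and 6.25% ± 1.77 in cNK, where Hk1 took 83.2% ± 1.01. The difference in the Hk2 share was 43.1 percentage points (exact permutation p = 0.1, the smallest 3 against 3 allows). Which isoenzyme held most in DN NK depended on the unit, since by FPKM Hk2 exceeded the 39.4% ± 1.60 of Hk1, while by estimated counts, which are not scaled to length, Hk1 held 50.0% and Hk2 43.8%. Hk3 kept 11.3% ± 1.30 in DN NK and 10.5% ± 0.956 in cNK (exact permutation p = 0.5).

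**Figure D2:**
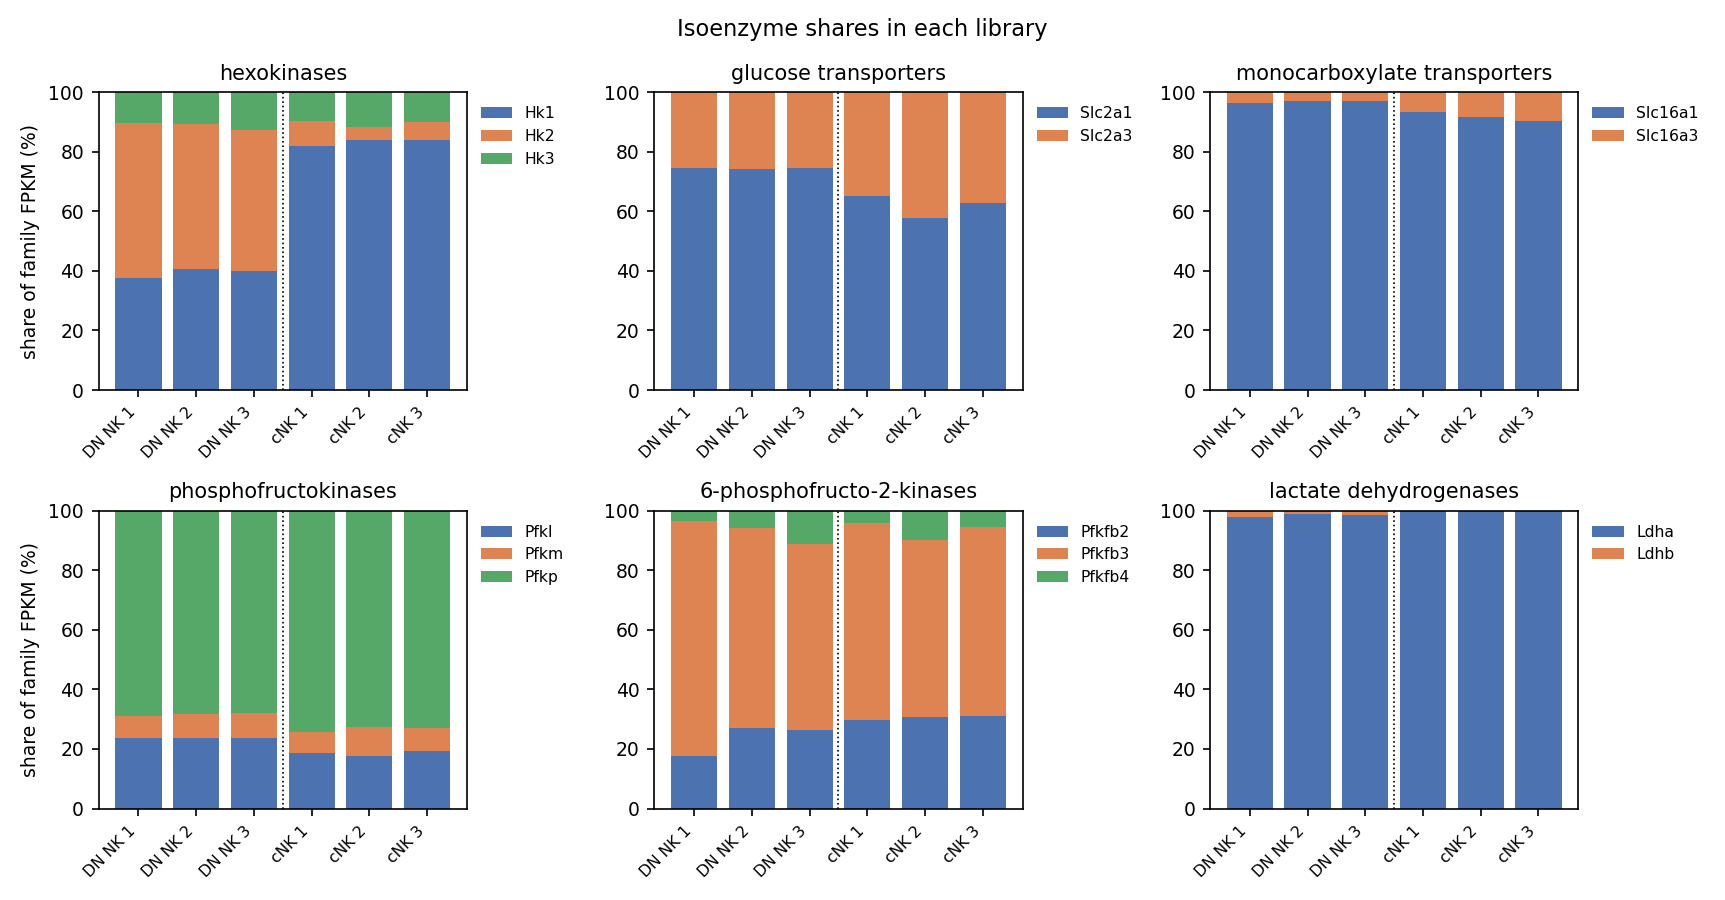
Share of each gene in the summed FPKM of its family, in percent, for each library, with DN NK left and cNK right of the dotted line. Hk2 takes 47.4 to 52.0% of the hexokinase sum in the DN NK libraries and 4.56 to 8.08% in the cNK libraries, while Ldha and Slc16a1 take over 90% of their families in every library.

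Further down, Gpi1, which turns glucose 6-phosphate into fructose 6-phosphate, had 31.3, 32.3 and 31.0 FPKM in DN NK and 30.9, 30.6 and 30.9 FPKM in cNK, and did not pass (log2 fold change 0.09, edgeR adjusted p = 0.0776). Of the phosphofructokinase genes, the liver-type Pfkl rose most, with 8.78, 7.82 and 8.11 FPKM in DN NK, against 5.67, 5.23 and 5.62 FPKM in cNK. The groups were clearly apart, at a log2 fold change of 0.64 (SE 0.07, edgeR adjusted p = 7.84e-05). The platelet-type Pfkp, the most abundant of the 3 in both groups, had 25.6, 22.4 and 23.1 FPKM in DN NK, against 22.7, 21.5 and 21.3 FPKM in cNK. Its groups overlapped, since the lowest DN NK library lay below the highest cNK library, and it passed at a log2 fold change of 0.18 (edgeR adjusted p = 0.0401). The call was lost in 7 of 16 alternatives, among them without DN NK replicate 1, cNK replicate 2 or cNK replicate 3, with adjusted p from 0.00797 to 0.218 over all 16. The muscle-type Pfkm stood at 2.78 ± 0.112 FPKM in DN NK and 2.43 ± 0.415 FPKM in cNK and did not pass (log2 fold change 0.26, edgeR adjusted p = 0.116). Without cNK replicate 2 it was called at 0.39 (adjusted p = 0.0194, against 0.303 at the most over its 15 alternatives). The Pfkp share of the 3 genes was 68.3% ± 0.497 in DN NK and 73.3% ± 1.02 in cNK, and the Pfkl share 23.7% ± 0.123 in DN NK and 18.5% ± 0.777 in cNK (exact permutation p = 0.1 for each).

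The bifunctional enzymes of the Pfkfb family make and break down fructose 2,6-bisphosphate, the activator of phosphofructokinase. Pfkfb3, the form with the strongest kinase activity, had 7.11, 3.56 and 3.53 FPKM in DN NK, against 2.64, 2.71 and 2.66 FPKM in cNK. All DN NK libraries were above all cNK libraries, but DN NK replicate 1 stood far above the other DN NK libraries. The log2 fold change was 0.89 (SE 0.32) and did not pass (edgeR adjusted p = 0.0633). Without DN NK replicate 1 the log2 fold change was 0.45 and passed (edgeR adjusted p = 0.00119). It also passed without DN NK replicate 3 (adjusted p = 0.0462) and with DESeq2 (adjusted p = 0.0269), and over 15 alternatives the adjusted p ranged up to 0.165. Pfkfb2, the isoform known from heart, was low, with 1.60, 1.44 and 1.48 FPKM in DN NK, against 1.18, 1.40 and 1.30 FPKM in cNK. The groups were barely apart. It passed (log2 fold change 0.28, edgeR adjusted p = 0.0340) and lost the call in 10 of 15 alternatives, with adjusted p from 0.0173 to 0.143. Those 10 include leaving out any DN NK library, or cNK replicate 1 or 3. Yod1, which overlaps it on the opposite strand, had 5.85 FPKM in DN NK and 3.43 FPKM in cNK. Pfkfb4 was below the filter at 0.430 ± 0.186 FPKM in DN NK and 0.288 ± 0.152 FPKM in cNK (no-filter log2 fold change 0.58, edgeR adjusted p = 0.329). Without cNK replicate 2 its log2 fold change was 1.09 (adjusted p = 0.0324, with up to 0.761 over its 10 alternatives).

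**Figure D3:**
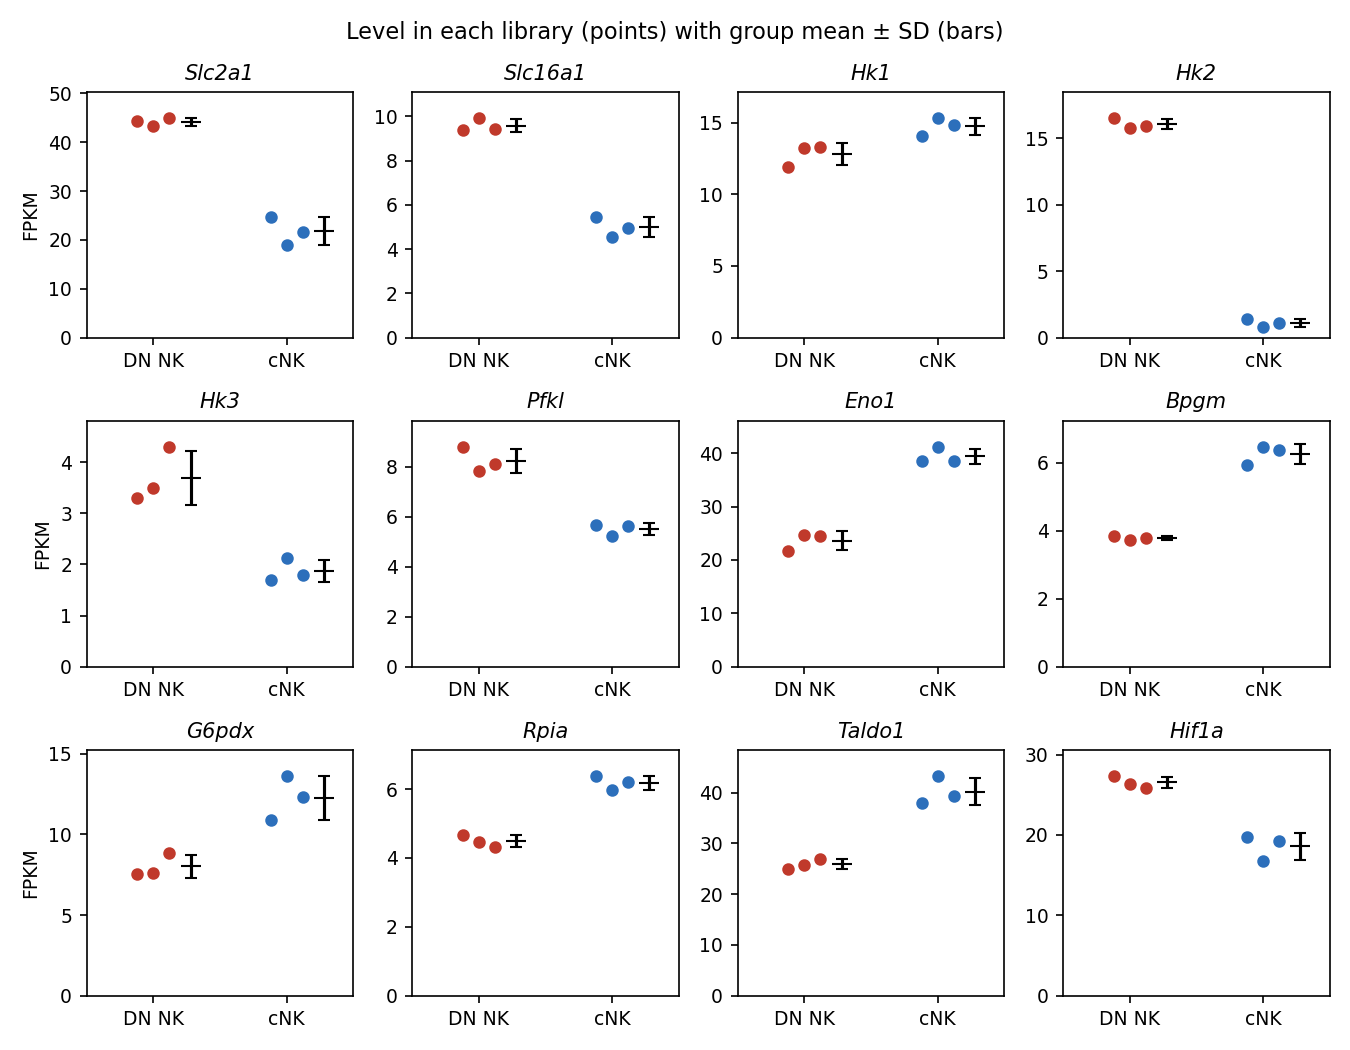
FPKM of 12 members in each library (points, DN NK in red and cNK in blue), with the group mean and SD as black bars and axes that start at 0. The groups are apart in every panel, with DN NK above cNK for Slc2a1, Slc16a1, Hk2, Hk3, Pfkl and Hif1a and below it for Hk1, Eno1, Bpgm, G6pdx, Rpia and Taldo1.

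Lower glycolysis, the steps from the aldolase split to pyruvate, held the most abundant members, and its changes ran both ways. The enolase gene Eno1 (chromosome 4, 150236721 to 150248879) had 21.6, 24.7 and 24.5 FPKM in DN NK, against 38.6, 41.1 and 38.6 FPKM in cNK. The highest DN NK library was far below the lowest cNK library, and the log2 fold change of -0.68 (SE 0.06, edgeR adjusted p = 1.64e-05) was the largest decrease among the tested members. Bpgm, which makes and removes 2,3-bisphosphoglycerate and is best known from red cells, had 3.85, 3.74 and 3.80 FPKM in DN NK, against 5.93, 6.46 and 6.39 FPKM in cNK. It was lower in 3 of 3 DN NK libraries, at a log2 fold change of -0.66 (SE 0.07, edgeR adjusted p = 6.65e-05). The 9 erythroid markers summed to 42.6 to 60.9 FPKM in DN NK and 33.2 to 40.7 FPKM in cNK, and their part in the Bpgm level was not tested.

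Smaller changes past the test were found at 4 further steps. Tpi1, triosephosphate isomerase, had 25.8, 27.9 and 24.4 FPKM in DN NK, against 35.3, 33.4 and 31.4 FPKM in cNK (log2 fold change -0.30, SE 0.07, edgeR adjusted p = 0.00737). Pgk1, the first ATP-forming kinase of the route, had 24.0, 23.4 and 24.3 FPKM in DN NK, against 28.7, 29.5 and 27.3 FPKM in cNK (log2 fold change -0.19, SE 0.05, edgeR adjusted p = 0.0115). For both, each DN NK library was below each cNK library. Gapdh, the dehydrogenase that feeds Pgk1, went the other way, with 31.4, 31.7 and 28.7 FPKM in DN NK, against 26.1, 25.1 and 23.7 FPKM in cNK (log2 fold change 0.36, SE 0.06, edgeR adjusted p = 0.00149). Pgam1, the phosphoglycerate mutase, had 61.1, 59.9 and 59.3 FPKM in DN NK, against 52.2, 57.7 and 54.1 FPKM in cNK (log2 fold change 0.20, SE 0.05, edgeR adjusted p = 0.00742). The groups did not overlap for either gene. The Pgam1 call was lost with upper quartile scaling (adjusted p = 0.0704) and without the expression filter (adjusted p = 0.0664), the highest of its 16 alternatives, the lowest being 0.00160.

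The other enzymes of lower glycolysis did not pass the test or were below the filter. Pkm, pyruvate kinase, had 64.2, 70.2 and 73.3 FPKM in DN NK, against 69.5, 71.2 and 66.6 FPKM in cNK, and was the most abundant single row among the members in both groups, copies of other members left aside. The groups overlapped, at a log2 fold change of 0.06 (SE 0.05, edgeR adjusted p = 0.336). A row named AC160637.1 overlaps Pkm on the same strand and held 17.1 FPKM in DN NK and 9.15 FPKM in cNK. Aldoa, the main aldolase, had 36.6, 38.6 and 40.3 FPKM in DN NK, against 41.2, 42.3 and 38.7 FPKM in cNK (log2 fold change -0.02, SE 0.05, edgeR adjusted p = 0.736). Eno3, the muscle-type enolase, stood at 4.25 ± 0.673 FPKM in DN NK and 5.21 ± 0.757 FPKM in cNK and did not pass (log2 fold change -0.23, edgeR adjusted p = 0.203). The brain-type genes Aldoc and Eno2 were below the filter. Aldoc stood at 0.264 ± 0.0169 FPKM in DN NK and 0.420 ± 0.0895 FPKM in cNK (edgeR without a filter, adjusted p = 0.0690), and Eno2 at 0.0443 ± 0.0338 FPKM in DN NK and 0.0175 ± 0.00561 FPKM in cNK (adjusted p = 0.273). The second Aldoa row held at most 31 estimated counts in any library.

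Some of these genes share sequence with copies that the table counts in rows of their own. Copies were counted where at least 300 bases of transcript were at least 95% identical and the copy's row averaged at least 1 FPKM in a group; rows below that level were left out. Gapdh has 21 such rows, and they held 577 FPKM in DN NK and 481 FPKM in cNK, against 30.6 FPKM in DN NK and 24.9 FPKM in cNK in the Gapdh row. Only 16.5 to 17.6% of the summed estimated counts lay in the Gapdh row itself. With copies and gene summed, the log2 fold change was 0.34 (SE 0.06, edgeR adjusted p = 0.00116), near the 0.36 of the single row. Eno1 has 2 such rows, Eno1b and Gm4735, with 34.0 FPKM in DN NK and 62.1 FPKM in cNK. Its summed log2 fold change was -0.72 (SE 0.06), against -0.68 in its own row. Pgk1 held 53.2 to 54.7% and Pgam1 82.9 to 84.1% of the counts in their sets, and their summed log2 fold changes were -0.21 and 0.21. In each of the 4 sets, gene and sum passed in the same direction. The levels of these 4 genes are therefore uncertain, since the table gives counts to the copies as well.

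**Figure D4:**
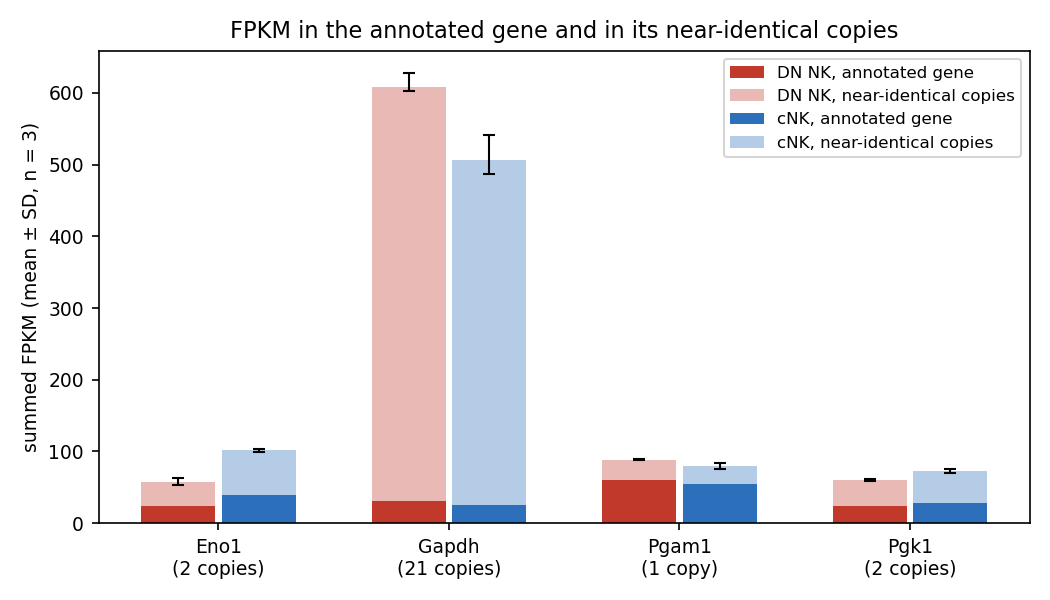
Mean FPKM of the annotated gene (dark) stacked with the rows of its near-identical copies of at least 1 FPKM (pale) for Eno1, Gapdh, Pgam1 and Pgk1, DN NK left of cNK. Bars are the mean and 1 SD over 3 libraries of a sum that also takes in copy rows below 1 FPKM. For Gapdh the copies make up most of the height, 577 FPKM in DN NK and 481 FPKM in cNK, against 30.6 FPKM in DN NK and 24.9 FPKM in cNK in the gene row.

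Lactate dehydrogenase interconverts pyruvate and lactate. Ldha, the form that dominates in most lymphocytes, had 45.9, 48.9 and 52.1 FPKM in DN NK, against 60.5, 54.8 and 59.0 FPKM in cNK. The groups did not overlap, at a log2 fold change of -0.19 (SE 0.06, edgeR adjusted p = 0.0233). The call was lost in 4 of 16 alternatives, those without DN NK replicate 1, DN NK replicate 2, cNK replicate 1 or cNK replicate 3 (adjusted p up to 0.0666, and down to 0.00388 over the 16). Ldhb, the form abundant in heart (chromosome 6, 142490249 to 142507957, minus strand), moved the other way at a low level. It had 1.02, 0.603 and 0.849 FPKM in DN NK, against 0.0465, 0.0242 and 0.0101 FPKM in cNK. That corresponds to about 99 read pairs in DN NK and 4 in cNK, a ratio of 26.6 with an exact 95% binomial interval of 10.1 to 99.6 for counting error only. It was below the filter, and passed in the fit of all rows (edgeR adjusted p = 6.73e-06). Its share of the Ldha and Ldhb sum stayed small, at 1.67% ± 0.486 in DN NK and 0.046% ± 0.0300 in cNK (exact permutation p = 0.1). In the DN NK libraries the summed B cell and T cell markers given above also exceeded those of cNK, and their part in the Ldhb level was not tested.

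Of the 7 pentose phosphate genes, G6pdx, Taldo1, Rpia and Tkt were lower in DN NK, and Pgls, Pgd and Rpe did not pass. That is 57.1% called, a share near the 61.7% of all tested rows. The branch had a summed level of 74.1 ± 1.32 FPKM in DN NK and 101 ± 9.18 FPKM in cNK. G6pdx, the rate-limiting dehydrogenase that makes NADPH (chromosome X, 74409483 to 74429194, minus strand), had 7.55, 7.63 and 8.86 FPKM in DN NK, against 10.9, 13.6 and 12.3 FPKM in cNK. Every DN NK library was below every cNK library, at a log2 fold change of -0.55 (SE 0.09, edgeR adjusted p = 0.000793). Taldo1, the transaldolase of the non-oxidative arm (chromosome 7, 141392199 to 141402968), had 25.0, 25.7 and 26.9 FPKM in DN NK, against 38.0, 43.2 and 39.3 FPKM in cNK. It was the most abundant gene of the branch and fell by 0.57 on the log2 scale (SE 0.06, edgeR adjusted p = 4.60e-05). Rpia, which isomerizes ribulose 5-phosphate to ribose 5-phosphate, had 4.68, 4.47 and 4.33 FPKM in DN NK, against 6.37, 5.96 and 6.21 FPKM in cNK. Its groups were well apart, at a log2 fold change of -0.40 (SE 0.07, edgeR adjusted p = 0.000995).

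Tkt, the transketolase, had 14.1, 15.2 and 14.4 FPKM in DN NK, against 16.1, 19.2 and 17.2 FPKM in cNK. It passed at a log2 fold change of -0.20 (SE 0.06, edgeR adjusted p = 0.0233), without overlap. That call was lost without DN NK replicate 1, DN NK replicate 3 or cNK replicate 2 (adjusted p up to 0.0686, and down to 0.00449 over 16 alternatives). Pgd, the second dehydrogenase of the oxidative arm, had 11.2, 11.3 and 12.1 FPKM in DN NK, against 12.2, 13.9 and 13.4 FPKM in cNK, and did not pass (log2 fold change -0.13, edgeR adjusted p = 0.0707). It was called lower in 5 of 16 alternatives, among them without cNK replicate 1, with adjusted p from 0.00923 to 0.212. Pgls, the lactonase between the dehydrogenases, stood at 4.33 ± 0.448 FPKM in DN NK and 4.61 ± 0.244 FPKM in cNK and did not pass (log2 fold change -0.03, edgeR adjusted p = 0.802). Fam129c, which overlaps it on the same strand, held 1.96 FPKM in DN NK and 0.368 FPKM in cNK. Rpe, the epimerase, varied most within groups among these genes, with 6.11, 5.99 and 3.89 FPKM in DN NK and 3.64, 9.48 and 9.39 FPKM in cNK. Replicate 3 of DN NK and replicate 1 of cNK stood low, and the log2 fold change of -0.42 (SE 0.44) did not pass (edgeR adjusted p = 0.442). Without cNK replicate 1 it was -0.75 (adjusted p = 0.0337, with up to 0.737 over 16 alternatives).

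Phosphoglucomutase links glucose 6-phosphate to glycogen and UDP-glucose. The row on chromosome 4 that the table calls Pgm2 and RefSeq calls Pgm1 had 8.43 ± 0.743 FPKM in DN NK and 9.10 ± 0.678 FPKM in cNK. The row on chromosome 5, with the names the other way round, had 9.98 ± 0.298 FPKM in DN NK and 10.2 ± 0.413 FPKM in cNK. Neither passed, at log2 fold changes of -0.05 (edgeR adjusted p = 0.621) and 0.03 (adjusted p = 0.699).

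Hif1a, the oxygen-regulated subunit of the hypoxia-inducible factor (chromosome 12, 73901375 to 73947530), had 27.3, 26.4 and 25.9 FPKM in DN NK, against 19.8, 16.7 and 19.3 FPKM in cNK. All DN NK libraries were above all cNK libraries, at a log2 fold change of 0.57 (SE 0.07, edgeR adjusted p = 0.000207). Of 27 tested partners and targets of the factor outside glycolysis, 13 were higher and 7 lower in DN NK, with a median log2 fold change of 0.18. That is 74.1% called, against 61.7% of all tested rows, of which 30.8% were higher and 30.9% lower. Only the 5 genes of this list with the largest absolute changes past the test are named here. Of the 7 lower genes, Ndrg1 alone is among them, and Epas1 and Arnt2 encode factor subunits, not targets. Epas1, which encodes the related subunit HIF-2α, stood at 2.77 ± 0.234 FPKM in DN NK and 0.437 ± 0.0578 FPKM in cNK (log2 fold change 2.72, edgeR adjusted p = 1.59e-06). Arnt2, a partner subunit best known from neurons, had 1.38, 1.33 and 1.53 FPKM in DN NK, against 0, 0.0141 and 0.00722 FPKM in cNK. The prolyl hydroxylase gene Egln3 stood at 3.47 ± 0.436 FPKM in DN NK and 1.01 ± 0.127 FPKM in cNK, and the mTORC1 inhibitor gene Ddit4 at 34.1 ± 1.64 FPKM in DN NK and 10.9 ± 1.03 FPKM in cNK. Both were higher past the test, at log2 fold changes of 1.84 and 1.70. Ndrg1, a common hypoxia target, was lower, at 0.657 ± 0.0389 FPKM in DN NK and 3.06 ± 0.105 FPKM in cNK (log2 fold change -2.15, edgeR adjusted p = 7.93e-07). Epas1 and Arnt2 reached 1 FPKM in DN NK libraries only, and Ndrg1 in cNK libraries only. Each thus passed the expression filter only through the group where it was high, and the counts of this list include them.

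Among 36 other tested isoenzymes and partners of the routes, 11 were higher and 12 lower in DN NK, with a median log2 fold change of -0.12. That is 63.9% called, a share near the 61.7% of all tested rows. Emb, which encodes embigin, a chaperone of MCT carriers, stood at 95.8 ± 6.80 FPKM in DN NK and 28.5 ± 2.49 FPKM in cNK (log2 fold change 1.81, edgeR adjusted p = 2.37e-06). Slc2a6, a glucose transporter family gene, stood at 12.2 ± 0.890 FPKM in DN NK and 4.18 ± 0.818 FPKM in cNK (log2 fold change 1.60, edgeR adjusted p = 8.58e-05). Slc16a10, a family member that carries aromatic amino acids, stood at 1.55 ± 0.138 FPKM in DN NK and 0.555 ± 0.0410 FPKM in cNK (log2 fold change 1.54, edgeR adjusted p = 1.18e-05). It passed the expression filter only through DN NK. The copy row Eno1b, met above beside Eno1, was lower at a log2 fold change of -0.81.

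In the branches next to the routes, more tested genes were lower than higher, though no test set these lists against all rows. Of 33 tested genes of pyruvate entry and the citrate cycle, 5 were higher and 20 lower in DN NK, with a median log2 fold change of -0.22. That is 75.8% called, against 61.7% of all tested rows, of which 30.8% were higher and 30.9% lower. Pdk1, a kinase that shuts off pyruvate dehydrogenase, was higher at 5.17 ± 0.499 FPKM in DN NK and 2.83 ± 0.175 FPKM in cNK (log2 fold change 0.93, edgeR adjusted p = 2.15e-05). Its relative Pdk2 was lower, at 3.02 ± 0.323 FPKM in DN NK and 5.16 ± 0.141 FPKM in cNK (log2 fold change -0.71, edgeR adjusted p = 0.000243). Got1, the cytosolic aspartate aminotransferase of the malate-aspartate shuttle, was higher at a log2 fold change of 1.38, while Idh2 and Suclg2 of the citrate cycle were lower at -0.79 and -0.71. Of 19 tested glycogen and hexosamine genes, 4 were higher and 8 lower, with a median of -0.11. Here 63.2% were called, near the share of all tested rows. The muscle glycogen phosphorylase gene Pygm stood at 2.85 ± 0.189 FPKM in DN NK and 0.697 ± 0.122 FPKM in cNK (log2 fold change 2.09, edgeR adjusted p = 1.16e-05). Pygm too passed the expression filter only through DN NK. Uap1, which makes UDP-GlcNAc, rose by 1.29 on the log2 scale and the lysosomal glucosidase gene Gaa by 0.92, whereas Ugp2, which makes UDP-glucose, fell by 0.82. Nagk, the kinase that salvages GlcNAc, stood at 1.34 ± 0.265 FPKM in DN NK and 3.01 ± 0.104 FPKM in cNK and was lower past the test (edgeR adjusted p = 0.000202).

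**Figure D5:**
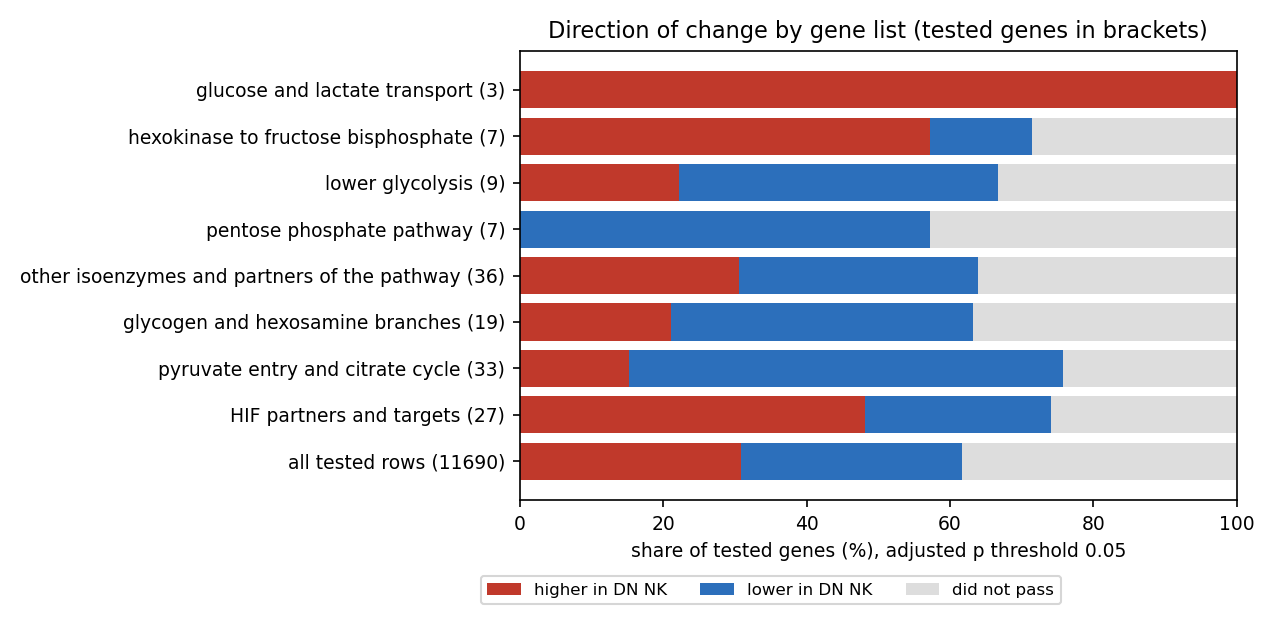
Share of tested genes, in percent, that were higher in DN NK (red), lower (blue) or did not pass the test (grey) for the members by place in the route, for 4 related gene lists and for all 11690 tested rows, with the number of tested genes in brackets. Transport is entirely red and the pentose phosphate pathway holds no red, while all tested rows split into 30.8% higher and 30.9% lower.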

How the data were processed

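Poly(A) RNA of spleen NK cells was sequenced as read pairs from TruSeq v2 libraries, per the labels' protocols, a kit without strand information. Alignment and assembly tools named in the submitters' processing notes are HISAT and StringTie, beside edgeR, on GRCm38 (mm10); versions are not given in the sources used here. Per the file headers, the deposited table holds an FPKM value and a count per gene row and library; every sample column was used. The deposited counts are whole but not read counts: 90.2 to 92.0% of values up to 30 equalled FPKM times length times a constant, rounded up. They were treated as estimated counts that the authors derived from coverage, with 1 read pair worth about 3.69 of them, a unit that is approximate.

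Groups follow the sample titles. A row was tested if 3 or more of the 6 libraries reached 1 FPKM, which left 11690 rows with 99.2 to 99.3% of the counts, by edgeR 4.0.16 in R 4.3.3 (quasi-likelihood, robust, TMM factors 0.972 to 1.03, group only, 2-sided, Benjamini-Hochberg over all tested rows, threshold 0.05). The SE is the log2 fold change over the square root of F, and the biological coefficient of variation was 13.5%. TMM scaling puts fold changes slightly above ratios of FPKM. Rows under the filter take their test from a fit of all 27763 rows. Shares were compared by exact permutation, 2-sided. Alternatives used DESeq2 1.42.0, limma 3.58.1 on log2(FPKM + 1) and other filters, scalings and left-out libraries. Copies were found with BLAST 2.17.0 in GENCODE M21 transcripts, and promoters come from RefSeq tables on GRCm38.p6. All members are named, and of each related list the up to 5 largest changes past the test; a gene that this rule takes is not reported here. Members and lists were chosen with earlier results of these data known. The members in the plot by library were chosen after their values were seen.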

Additional observations from a re-analysis of the deposited data

How the results depend on the processing

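Each gene row was recomputed under up to 16 alternatives. Called higher in every alternative that tested them were 8 of 11 members and called lower 7 of 10; Pfkp, Pfkfb2, Pgam1, Hk1, Ldha and Tkt lost the call at least once, and the cause was not tested. The count of members higher ranged from 8 to 12 and that lower from 7 to 11. All rows called numbered 4614 of 6801 with a mean of at least 5 FPKM, which tests fewer rows. With estimated counts in place of FPKM the share difference was 39.1 percentage points for Hk2, -3.53 for Pfkp and 0.78 for Ldhb. Leaving out each replicate gave 41.7 to 44.0 for Hk2, 10.3 to 14.0 for Slc2a1, -5.67 to -4.21 for Slc16a3, -5.45 to -4.48 for Pfkp, 1.66 to 9.81 for Pfkfb3 and 1.37 to 1.85 for Ldhb. Reversed signs, none past the test, were -0.022 for Pkm with upper quartile scaling and -0.002 without a filter, and for Pgm1 -0.055 with upper quartile scaling, -0.028 and -0.031 with limma at a pseudocount of 1 and 0.1, and -0.034 without a filter. Leaving out each replicate gave -0.010 to 0.057 for Pgm1, -0.106 to 0.006 for Pgm2 and -0.125 to 0.008 for Pgls, and the second Aldoa row 0.70 under the block and 1.63 without cNK replicate 1. A replicate block called 10 members higher, 10 lower and 7222 rows; same-numbered libraries correlated at 0.05, 0.04 and 0.16, so the numbers were not taken as pairs. The choice of copies to sum and the fits without a filter for low members were added after seeing the data. Members under 1 FPKM rest on few read pairs.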
